A study of Mus musculus with 8 samples.

Results

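The core naive pluripotency transcription factors were followed in newly labelled RNA of mouse embryonic stem cells given DMSO or an inducer of Ythdc1 deletion. They are 10 genes chosen by name: Pou5f1, Sox2, Nanog, Klf2, Klf4, Esrrb, Tfcp2l1, Zfp42, Tbx3 and Prdm14. All 10 were found among the 37794 gene entries of the deposited table, which holds 38971 entries with repeat types, structural RNAs and spike-ins included. All 10 passed the filter on low values, Prdm14 only through 1 DMSO and both 4OHT libraries of 8 min, where its deposited values were highest.

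There were 8 libraries in 4 groups of 2, all from male 129 mouse embryonic stem cells that carry a conditional knockout of Ythdc1 and were grown without feeders in serum and LIF. Cells were given DMSO, the solvent control, or 4-hydroxytamoxifen (4OHT, 1 μg/ml) during 4 days. In all groups DRB, an inhibitor that holds RNA polymerase II near promoters, was then applied at 100 μM for 3 h and washed out, and 1 mM 4-thiouridine (4sU) was present for 0 or 8 min before labelled RNA was biotinylated and pulled down. In conditional lines of this kind 4OHT switches on a recombinase. Its driver, and the part of Ythdc1 that it removes, are not given in the sources used here. The sample titles put 1 cell line at 0 min and another at 8 min, while the columns of the table carry the numbers 1 and 2 at both times, so columns were assigned to groups only. By the titles, line and labelling time cannot be told apart. If the column numbers stand for lines instead, each group would hold both lines, and the labels do not settle which reading holds. A column that did not name 4OHT was read as DMSO. Nothing states that the 2 libraries of a group came from separate cultures, so each p-value reflects library-to-library spread that may be technical.

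Oct4 (encoded by Pou5f1) and Sox2 bind DNA together at composite octamer and SOX sites, and with Nanog they form the centre of the network that keeps embryonic stem cells undifferentiated. Esrrb, Klf2, Klf4, Tfcp2l1, Tbx3 and Prdm14 support the naive state, the ground condition of the early epiblast, and several of them are fed by LIF through Stat3. Zfp42, also known as Rex1, is a widely used marker of that state. Ythdc1 is a nuclear protein that reads N6-methyladenosine on RNA.

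The upstream windows of 4 members are shown because these genes gave the different outcomes reported below: Nanog and Klf2 were lower, Sox2 higher and Pou5f1 close to 0 with 4OHT at 8 min. Each is the 250 bases before the RefSeq gene start (GRCm38.p6), 5′ to 3′ on the gene's strand, which is the plus strand for all 4. The coordinates are chr6:122707239-122707488 for Nanog, chr3:34649745-34649994 for Sox2, chr8:72318812-72319061 for Klf2 and chr17:35505782-35506031 for Pou5f1. Capitals mark matches to the motifs described after them.
Nanog: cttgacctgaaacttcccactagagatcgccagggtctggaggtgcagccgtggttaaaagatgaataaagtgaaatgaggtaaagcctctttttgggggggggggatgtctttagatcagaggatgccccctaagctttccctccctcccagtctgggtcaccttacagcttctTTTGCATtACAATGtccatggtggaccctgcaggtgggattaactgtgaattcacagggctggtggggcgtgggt
Sox2: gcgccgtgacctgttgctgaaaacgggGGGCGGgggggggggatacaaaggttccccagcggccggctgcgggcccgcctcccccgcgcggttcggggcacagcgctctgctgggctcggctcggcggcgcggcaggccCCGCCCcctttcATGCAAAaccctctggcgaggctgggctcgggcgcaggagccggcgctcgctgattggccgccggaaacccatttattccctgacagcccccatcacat
Klf2: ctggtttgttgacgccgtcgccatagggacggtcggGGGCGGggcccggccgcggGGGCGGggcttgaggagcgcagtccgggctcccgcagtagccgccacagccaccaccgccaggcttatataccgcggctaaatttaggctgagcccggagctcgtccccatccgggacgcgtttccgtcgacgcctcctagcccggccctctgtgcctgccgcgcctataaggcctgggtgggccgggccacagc
Pou5f1: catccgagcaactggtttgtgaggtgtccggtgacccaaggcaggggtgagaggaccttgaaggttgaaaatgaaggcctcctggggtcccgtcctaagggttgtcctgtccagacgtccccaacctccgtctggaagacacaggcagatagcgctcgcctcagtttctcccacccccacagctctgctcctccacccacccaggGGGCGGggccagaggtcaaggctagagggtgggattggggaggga

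The reference table gave such a window for 7 members (not for Tfcp2l1, Tbx3 and Prdm14), and 5 short motifs were searched on both strands. The octamer core TTTGCAT was in 4.13% of the 32841 windows in that table, and the SOX core CATTGT was in 10.7%. The ERR site AAGGTCA was in 4.08%, the KLF CACCC box CCNCACCC in 14.9% and the GC box GGGCGG in 32.7%. Nanog held the octamer core 75 to 69 bases before its start with a SOX core 67 to 62 bases before it, 1 base apart. In Sox2 an octamer core on the opposite strand lay 99 to 93 bases before the start, beside 2 GC boxes. Zfp42 held the octamer core 185 to 179 bases before its start, 2 CACCC boxes and 2 GC boxes, of which a GC box and a CACCC box overlapped. Klf2 held 2 GC boxes, Klf4 4 (of which 1 pair overlapped by 1 base), Pou5f1 1, and Esrrb 1 CACCC box. A match describes letters in these windows and is not evidence that a factor binds.

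The deposited values were read counts divided by 1 number per library, and 46.3 to 134 M reads per library could be recovered. On the scale as deposited the median gene was higher by 1.43 on the log2 scale with 4OHT at 8 min. For the main comparison the values were therefore divided again by median-ratio factors, which put the median gene at −0.012. This is called the relative scale, and a value on it is a relative signal. The deposited scale is given beside it, since both need not point the same way. Ythdc1 (chromosome 5, 86803980 to 86836659) had a relative signal of 280 and 333 in DMSO and 272 and 488 in the libraries labelled 4OHT at 0 min. At 8 min it was 1662 and 2083 in DMSO and 1160 and 1398 with 4OHT, a fall of 0.55 ± 0.15 (SE) on the log2 scale (limma adjusted p = 0.00457), whereas on the deposited scale the change had the opposite sign, +0.93 (adjusted p = 0.215). Because the deleted part is not stated, reads over the whole gene are a limited check of the labels. Among marker lists with genes past the filter, the 2-cell-like list rose most, with a median log2 change of 2.82. Its summed relative signal was 18.6 to 24.8 in DMSO and 151 to 158 with 4OHT at 8 min. Zscan4d, Zscan4f, Zscan4c and Gm4340 were higher of its 5 measured members (0 of 8 listed at 0 in all libraries). The mesoderm list, with 0 genes past the filter, had lower sums with 4OHT (2.74 to 4.11) than in DMSO (19.7 to 21.9). Fewer cells of a type and less RNA per cell cannot be told apart in such bulk libraries.

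Whether the factors differed in newly made RNA after 4OHT was read first at 8 min on the relative scale. Nanog was 2.03-fold lower, Klf2 1.45-fold lower and Sox2 1.34-fold higher with 4OHT. The other 7 members did not pass the threshold (limma on log2 of the value + 1, Benjamini-Hochberg adjusted p under 0.05 over 20657 genes, 4 libraries). Of all genes tested, 17.8% were called higher and 17.1% lower, so 1 member higher and 2 lower of 10 lay near that background. The median of the 10 members was −0.17 and that of all genes −0.012.

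Nanog, a homeodomain factor of the core (gene ID 71950; GRCm38.p6 chromosome 6, 122707489 to 122714633), had a relative signal of 124 and 121 in the DMSO libraries and 64.8 and 55.8 in the 4OHT libraries. Both 4OHT libraries lay below both DMSO libraries, and the gap was several times the spread within either group. The recovered reads were 3110 and 2357 in DMSO and 1700 and 1668 with 4OHT. The fold change was −1.02 ± 0.14 (log2, SE; 95% confidence interval −1.30 to −0.74; limma adjusted p = 1.42e-06), lower than that of all but 4.18% of genes tested. Leaving out any 1 of the 4 libraries, which left 1 library in a group, gave −1.13 to −0.92. The call was lost when all 8 libraries shared 1 estimate of the spread (adjusted p = 0.266) and without a filter (adjusted p = 0.0564), with the same fold change. On the deposited scale the sign turned: the values were 105 and 158 in DMSO and 150 and 206 with 4OHT, which overlap, for a change of 0.45 (95% confidence interval −0.73 to 1.62; adjusted p = 0.476). The call for Nanog is thus one relative to other genes, and its adjusted p ranged from 4.53e-12 to 0.476 over the alternatives of that fit, spike-in scaling (given below) not among them. Nanog and Pou5f1 have processed pseudogenes in the mouse genome, and how reads that map to several places were counted is not stated.

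Sox2, the HMG-box partner of Oct4 (gene ID 20674; chromosome 3, 34649995 to 34652461), had a relative signal of 184 and 176 in DMSO and 232 and 251 with 4OHT at 8 min. Both 4OHT libraries were above both DMSO libraries. The change was 0.42 ± 0.12 (log2, SE; adjusted p = 0.00676). With 1 library left out it ranged from 0.35 (without 4OHT library number 2) to 0.47. It did not pass with all 8 libraries in 1 fit (adjusted p = 0.457), without a filter (adjusted p = 0.0755) or without a trend (adjusted p = 0.0800). Sox2 lies inside the long noncoding gene Sox2ot (chromosome 3, 34560381 to 34677993), and whether counting used strand is not stated, so reads of the pair cannot be told apart. Sox2ot had a relative signal of 1404 and 1449 in DMSO and 1236 and 1373 with 4OHT, a change of −0.13 (adjusted p = 0.478). Sox2 was thus called and the gene that spans it was not.

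Pou5f1, which encodes Oct4 (gene ID 18999; chromosome 17, 35506032 to 35510777), had a relative signal of 150 and 109 in DMSO and 127 and 127 with 4OHT. The 4OHT values lay between the DMSO values. The change was −0.0056, with a 95% confidence interval of −0.29 to 0.28 (adjusted p = 0.981).

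**Figure D1:**
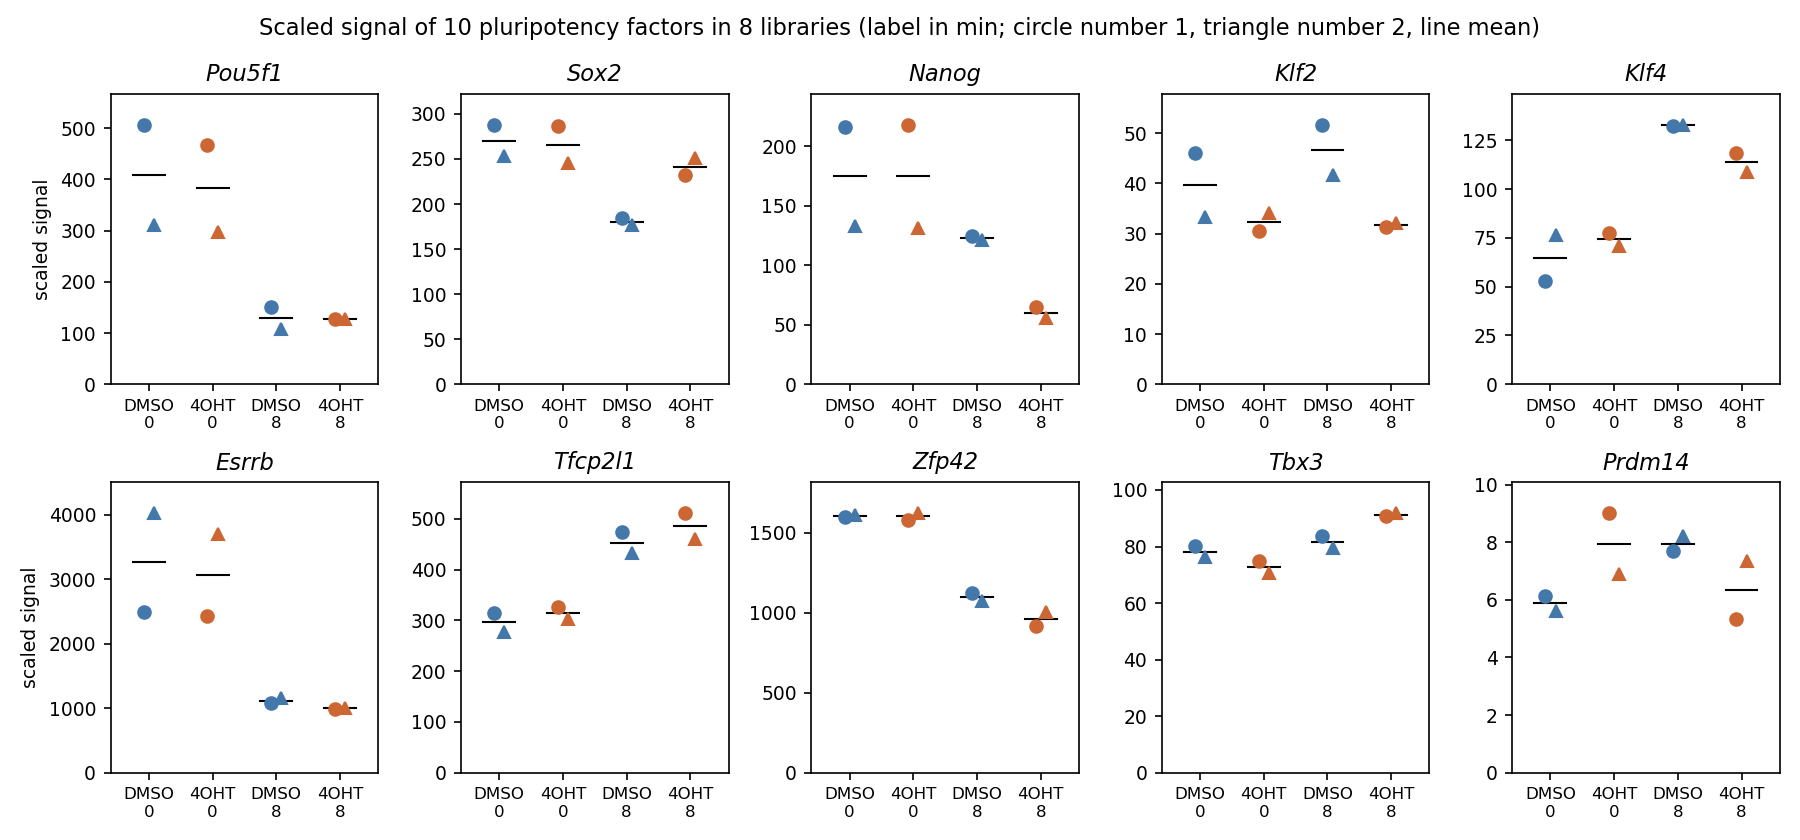
Relative signal (deposited value divided by a median-ratio factor, linear axis from 0) of each member in 8 libraries, in 4 groups by treatment and label time in min. Blue is DMSO and orange 4OHT; circles are number 1, triangles number 2 and lines the mean of 2. Nanog at 8 min sits at 124 and 121 in DMSO and at 64.8 and 55.8 with 4OHT, and the number 1 and 2 libraries of 0 min stand apart for Pou5f1, Nanog and Esrrb.

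The KLF factors are zinc finger proteins that bind CACCC and GC-rich sites, and Klf2 and Klf4 share many targets in these cells. Klf2 (gene ID 16598; chromosome 8, 72319062 to 72321654) had a relative signal of 51.7 and 41.5 in DMSO and 31.2 and 32.1 with 4OHT at 8 min. Both 4OHT libraries were below both DMSO libraries, and the DMSO libraries differed from each other by more than the 4OHT ones. The change was −0.54 ± 0.17 (log2, SE; adjusted p = 0.0169). With 1 library left out it ranged from −0.69 to −0.39 (without DMSO library number 1). It did not pass with all 8 libraries in 1 fit (adjusted p = 0.525), without a filter (adjusted p = 0.125) or without a trend (adjusted p = 0.0620). Klf4 (gene ID 16600; chromosome 4, 55527137 to 55532475) had 132 and 133 in DMSO and 118 and 109 with 4OHT. Its groups did not overlap, but the change of −0.22 (95% confidence interval −0.48 to 0.034) missed the threshold (adjusted p = 0.173).

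Esrrb, an orphan nuclear receptor, and Tfcp2l1, a grainyhead-family factor, are held to link the network to WNT and LIF signals. Esrrb (gene ID 26380; chromosome 12, 86361117 to 86521628, the longest member with a span of 160512 bases) had a relative signal of 1084 and 1154 in DMSO and 992 and 1011 with 4OHT at 8 min. Its change was −0.16 (95% confidence interval −0.42 to 0.10; adjusted p = 0.353). Tfcp2l1 (gene ID 81879; chromosome 1, 118627923 to 118685168) had 473 and 433 in DMSO and 511 and 460 with 4OHT, values that overlap. Its change was 0.099 (95% confidence interval −0.14 to 0.34; adjusted p = 0.548). Both intervals include 0.

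Tbx3, a T-box factor of the LIF branch (gene ID 21386; chromosome 5, 119670534 to 119684724), had a relative signal of 83.7 and 79.4 in DMSO and 90.8 and 91.8 with 4OHT. The groups did not overlap, and the change was 0.16 (95% confidence interval −0.11 to 0.44; adjusted p = 0.372). The noncoding gene Tbx3os1 overlaps Tbx3 and may share reads with it; its change was 0.061 (adjusted p = 0.824). Zfp42 (gene ID 22702; chromosome 8, 43295067 to 43307009) had 1123 and 1074 in DMSO and 920 and 1005 with 4OHT, lower in both 4OHT libraries. Its change was −0.19 (95% confidence interval −0.45 to 0.069; adjusted p = 0.255). Prdm14, a PR-domain protein that restrains FGF signalling and DNA methylation (gene ID 383491; chromosome 1, 13113428 to 13127163), was the member with the fewest reads, 140 to 220 at 8 min. Its relative signal was 7.68 and 8.23 in DMSO and 5.33 and 7.35 with 4OHT, and the change of −0.30 had the widest interval of the 10 (−0.91 to 0.31; adjusted p = 0.468).

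In all, the groups of 8 min did not overlap for 8 members, 2 of them higher with 4OHT (Sox2, Tbx3) and 6 lower (Nanog, Klf2, Klf4, Esrrb, Zfp42, Prdm14). Over all genes tested, 32.5% did not overlap with 4OHT higher and 34.4% with 4OHT lower. The 7 members without a call ranged from −0.30 for Prdm14 to 0.16 for Tbx3. On the relative scale, Nanog and Sox2 were called in opposite directions while Pou5f1 lay at the median gene. The counts of called members lay near the shares over all genes, and the Sox2 call was lost in several alternatives. On the deposited scale all 10 members were above 0.

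On the deposited scale every member was higher with 4OHT at 8 min, from 0.45 for Nanog to 1.90 for Sox2, with a median of 1.31 beside 1.43 for all genes. There, Sox2 (1.90; limma adjusted p = 0.0113), Tbx3 (1.63; adjusted p = 0.0195), Pou5f1 (1.47; adjusted p = 0.0342) and Tfcp2l1 (1.58; adjusted p = 0.0348) were called higher and none lower, also by edgeR with the deposited divisors. At an unadjusted p under 0.05, Klf4 was higher as well and no member was lower. Of all genes 59.6% were called higher and 0.15% lower. With any 1 of the 4 libraries left out, 1 group held 1 library, and calls were fewer for members and for all genes. The changes of Sox2, Tbx3, Pou5f1 and Tfcp2l1 stayed above 0. Scaling by the ERCC spike-ins, chosen after the data were seen, called 0 of the members and placed Nanog at −0.89 (adjusted p = 1.00). The deposited spike-in sums ranged from 1028 to 31054 between libraries.

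**Figure D2:**
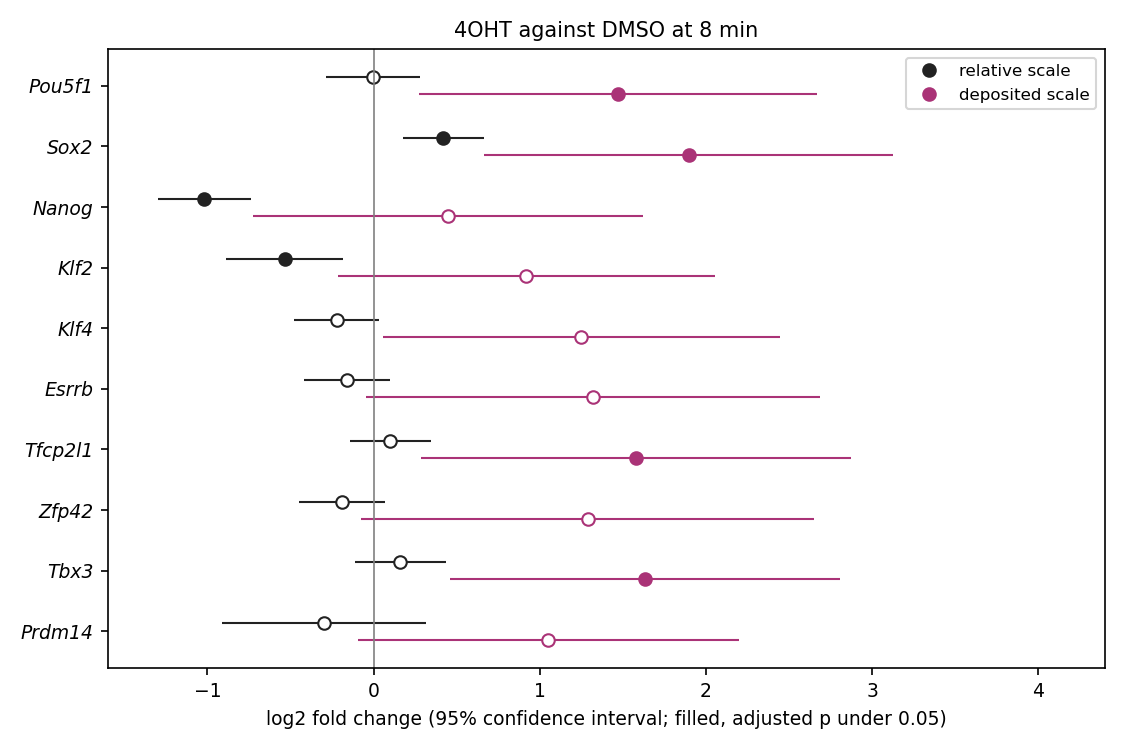
Log2 fold change of 4OHT against DMSO at 8 min for each member on the relative scale (black) and the deposited scale (magenta), with 95% confidence intervals from limma; filled points passed an adjusted p of 0.05. Nanog lies at −1.02 and Sox2 at 0.42 on the relative scale, and all points of the deposited scale lie to the right of 0, from 0.45 to 1.90.

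At 0 min, where no labelling time was given, the pulled-down RNA is what the procedure recovers without label, called carry-over here. No member was called with 4OHT on the relative scale by limma, edgeR or DESeq2, and 0 of 10 had an unadjusted p under 0.05. Among all genes 0% were called higher and 0% lower, while 142 and 85 had an unadjusted p under 0.05. Changes ran from −0.28 for Klf2 to 0.37 for Prdm14. The groups did not overlap for Tbx3 (lower) and Prdm14 (higher), against 8.8% of all genes lower and 9.78% higher.

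The libraries of 0 min instead fell together by number. Nanog had a relative signal of 216 in DMSO number 1 and 218 in 4OHT number 1, but 133 and 131 in the number 2 libraries. Pou5f1 had 507 and 467 in the number 1 libraries and 310 and 298 in the number 2 libraries. Esrrb went the other way, with 2496 and 2425 in number 1 and 4022 and 3695 in number 2. These 3 genes thus differed more between numbers than between treatments at 0 min. Zfp42 (1598, 1610, 1583 and 1623) and Tbx3 (80.3, 76.1, 75.0 and 70.6) were near level over the 4 libraries. What the number stands for is not given in the sources used here.

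The change from 0 to 8 min says how far the RNA of each gene stood above or below the carry-over, relative to other genes. In DMSO, Pou5f1 (−1.63 ± 0.31, SE; limma adjusted p = 0.00659) and Esrrb (−1.50 ± 0.33; adjusted p = 0.0108) were lower at 8 min, and Klf4 (1.04 ± 0.27; adjusted p = 0.0176) and Tfcp2l1 (0.61 ± 0.21; adjusted p = 0.0471) were higher. Of all genes, 34.6% were called higher and 21.3% lower, and the median gene was at 0.31. Sox2 (−0.58; adjusted p = 0.0536), Zfp42 (−0.55; adjusted p = 0.0996) and Nanog (−0.46; adjusted p = 0.204) did not pass, nor did Klf2 (0.24), Tbx3 (0.060) and Prdm14 (0.38). All 4 calls were lost without a filter (limma adjusted p = 0.0643 to 0.0764). Leaving out a DMSO library left 1 library in a group, so only effect sizes are given for it. Pou5f1 then ranged from −2.00 to −1.29, Esrrb from −1.86 to −1.18, Klf4 from 0.77 to 1.29 and Tfcp2l1 from 0.50 to 0.69. Nanog ranged from −0.83 (without DMSO 0 min number 2) to −0.13.

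With 4OHT, Esrrb (−1.58 ± 0.35, SE; limma adjusted p = 0.0132), Pou5f1 (−1.54 ± 0.29; adjusted p = 0.00802) and Nanog (−1.48 ± 0.32; adjusted p = 0.0124) were lower at 8 min than at 0 min. Nanog had a relative signal of 218 and 131 at 0 min and 64.8 and 55.8 at 8 min in the 4OHT libraries, with no overlap. No member was called higher by limma or edgeR. Klf4 (0.61; limma adjusted p = 0.0693) and Tfcp2l1 (0.62; adjusted p = 0.0595) had unadjusted p-values under 0.05. Of all genes 34.3% were called higher and 20.6% lower, with the median gene at 0.38. Without a filter, Nanog and Esrrb did not pass (limma adjusted p = 0.0544 and 0.0553). Leaving out a 4OHT library left 1 library in a group, so only effect sizes are given for it. Pou5f1 then ranged from −1.88 to −1.21, Nanog from −1.85 to −1.10 and Esrrb from −1.87 to −1.29. Without 4OHT 0 min number 1, Klf4 was at 0.68 and Tfcp2l1 at 0.69, and without number 2 they were at 0.54 and 0.56. With any 4OHT library left out, Tbx3 ranged from 0.27 to 0.38.

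The direction of several of these changes rests on the scale. On the deposited scale in DMSO, Nanog was at 0.56, Sox2 at 0.44 and Zfp42 at 0.48 (8 against 0 min), whereas Pou5f1 (−0.60) and Esrrb (−0.47) stayed below 0 without a call. In the 4OHT libraries all 10 were above 0 on that scale, with 6 called higher and none lower. The share of all genes called is not given for that comparison. Median-ratio factors were 0.473 and 0.843 for 4OHT at 0 min and 2.32 and 3.70 at 8 min, an upward shift of the deposited scale. The 6 calls are therefore not read as particular to the members. In the same deposited values the ratio of 0 to 8 min was high for some members in DMSO. The mean of 0 min was 154% of the mean of 8 min for Pou5f1, 142% for Esrrb, 72.1% for Sox2, 70.6% for Zfp42 and 67.3% for Nanog. The ratio was lower for Tbx3 (46.3%), Klf2 (41.4%), Prdm14 (35.1%), Tfcp2l1 (31.6%) and Klf4 (23.8%). With 4OHT the ratios ran from 14.2% for Tfcp2l1 and Klf4 to 70.5% for Esrrb, with Nanog at 60.0%. A carried-over part cannot exceed the whole, and the meaning of the divisor is not given. The ratios therefore do not measure the carry-over within the 8 min values. Reads of every member were also recovered with no label, so the 8 min values may include such a part. Its size and its share of the 4OHT difference were not tested.

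**Figure D3:**
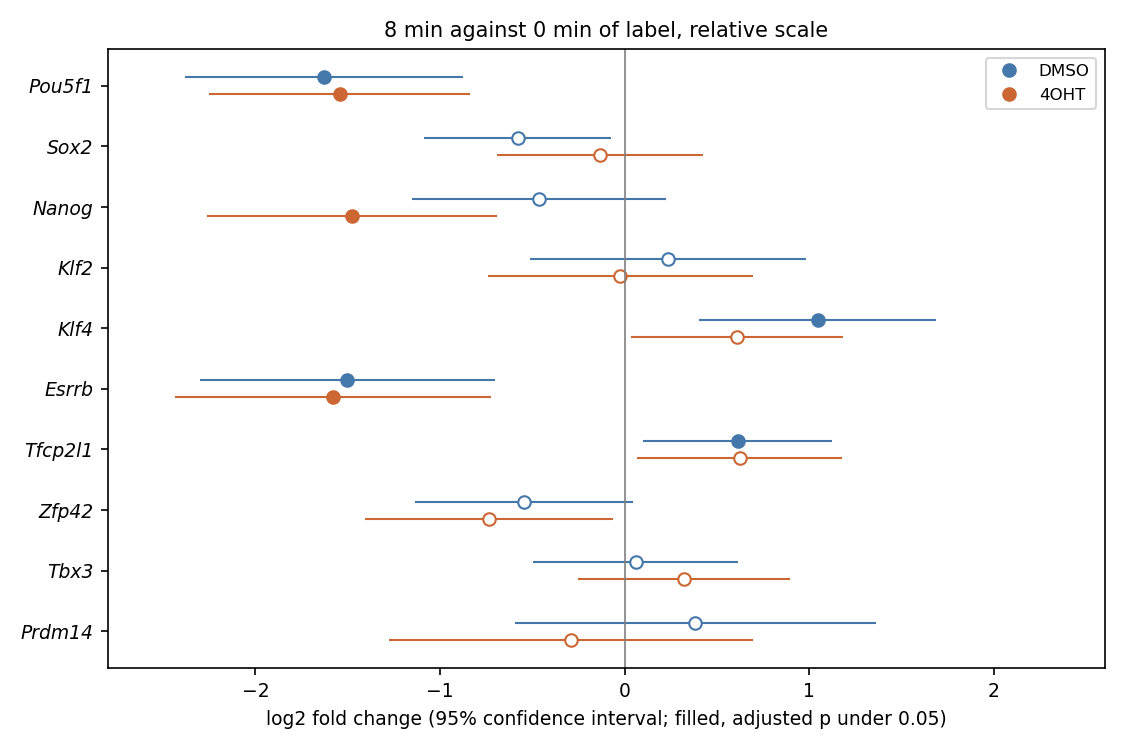
Log2 fold change of 8 against 0 min of label for each member on the relative scale, in DMSO (blue) and with 4OHT (orange), with 95% confidence intervals from limma; filled points passed an adjusted p of 0.05. Pou5f1 and Esrrb lie between −1.63 and −1.50 in both treatments, and Nanog lies at −0.46 in DMSO and −1.48 with 4OHT.

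Whether the effect of 4OHT differed between 8 and 0 min was tested by the interaction in 1 fit of all 8 libraries. None of the 10 members passed by limma or edgeR, and of all genes 0% passed as higher and 0% as lower (597 and 690 at an unadjusted p under 0.05). Nanog had the largest difference of the 10, −1.01 (95% confidence interval −2.03 to 8.7e-05; limma adjusted p = 0.802), and no member had an unadjusted p under 0.05. Sox2 had 0.45 (adjusted p = 0.883), Klf2 −0.26 (adjusted p = 0.973) and Prdm14 −0.67 (adjusted p = 0.916). The 8 min call of Nanog is therefore not shown to be specific to labelled RNA by this test.

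The LIF pathway, the outside signal that sustains these factors in culture, was measured in full, 8 of 8 genes. At 8 min on the relative scale 2 were higher, 1 was lower and 5 did not pass, with a list median of 0.19; over all genes 17.8% were higher and 17.1% lower. Socs3, the feedback inhibitor of the pathway, rose by 1.22 ± 0.15 (log2, SE; limma adjusted p = 2.05e-07), from 69.4 and 50.6 in DMSO to 147 and 132. Stat3, the transcription factor that carries the signal, rose by 0.59 ± 0.13 (adjusted p = 0.000611), from 153 and 124 to 217 and 199. Il6st, which encodes the shared receptor subunit gp130, had −1.07 ± 0.12 (adjusted p = 7.93e-08), with 280 and 252 in DMSO and 122 and 130 with 4OHT. For these 3 genes the groups did not overlap, and the receptor subunit stood opposite to the transducer and the inhibitor.

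Of 16 partner factors, other transcription factors and cofactors of the network, 2 were higher, 5 lower and 9 did not pass, beside 17.8% higher and 17.1% lower over all genes. Nr0b1 (Dax1, an orphan nuclear receptor that binds Oct4) had the largest fall, −1.80 ± 0.18 (log2, SE; adjusted p = 1.21e-08), from 61.0 and 59.4 to 15.0 and 18.3. At 0 min Nr0b1 was also lower, at −1.04 without a call, with 35.3 and 29.2 in DMSO and 22.4 and 10.1 with 4OHT. Zfp281, Nr5a2, Tcf7l1 and Sall1 fell by 0.34 to 0.50. Gbx2, a homeobox factor downstream of LIF, rose by 1.47 ± 0.23 (adjusted p = 1.08e-05), from 9.28 and 11.8 to 35.8 and 26.6, and Dppa4 rose by 0.63 (adjusted p = 0.000337). The count of lower partners changed with a library left out, where 1 group held 1 library. The median of the list was −0.017.

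Of 14 genes long known as targets of Oct4 and Sox2, 9 were lower, 0 higher and 5 did not pass, with a median of −0.43 beside −0.012 for all genes. Over all genes tested 17.1% were lower and 17.8% higher. No target was higher at an unadjusted p under 0.05, and edgeR and DESeq2 also called 0 higher and 9 lower. Spp1, which encodes osteopontin, had −1.19 ± 0.15 (log2, SE; adjusted p = 4.24e-07), from 95.5 and 86.0 in DMSO to 38.8 and 39.6 with 4OHT. Upp1, a uridine phosphorylase, had −1.03 ± 0.12 (adjusted p = 2.33e-07), from 242 and 207 to 107 and 111. The others were Tcl1 (−0.93), Lefty2 (−0.70), Tdgf1 (−0.67), Fgf4 (−0.66), Dppa5a (−0.49), Trim28 (−0.38) and Lin28a (−0.34). At 0 min Tcl1 was at −0.88, Upp1 at −0.15 and Spp1 at 0.25, none of them called. The count of lower targets also changed with a library left out, where 1 group held 1 library. For all 3 lists the calls were those of the relative scale. On the deposited scale none was lower and 6, 10 and 3 were higher, beside 59.6% higher and 0.15% lower over all genes. With all 8 libraries in 1 fit no gene of the 3 lists passed. The lists were chosen with results of these data known, so their counts are a description.

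**Figure D4:**
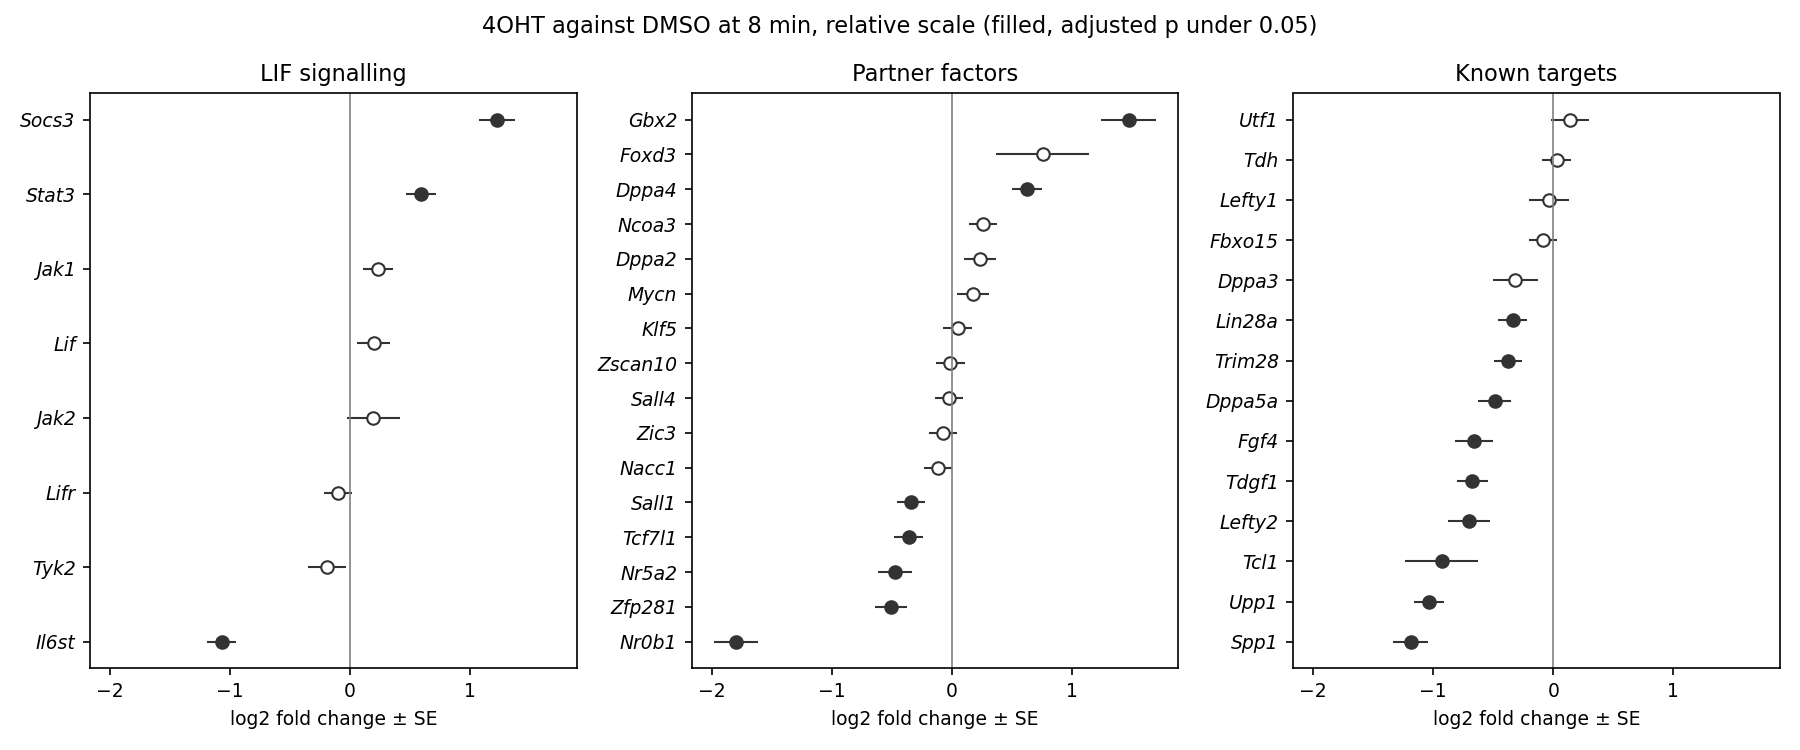
Log2 fold change ± SE of 4OHT against DMSO at 8 min on the relative scale for the LIF pathway, partner factors and known targets of Oct4 and Sox2; filled points passed an adjusted p of 0.05. Nr0b1 at −1.80 and Gbx2 at 1.47 are the outer points, and 9 filled points of the targets lie left of 0.

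Markers of other cell states moved at the same time and are given as values beside these results. Of the formative list, 2 of 7 measured genes were higher with 4OHT at 8 min, Pou3f1 (1.47; limma adjusted p = 1.75e-05) and Tcf15 (1.20; adjusted p = 5.73e-07). Otx2 (−0.26; adjusted p = 0.159) and the other 4 did not pass. The summed relative signal of that list was 424 to 470 in DMSO and 487 to 544 with 4OHT. Of the 7 embryonic stem cell markers, which include 4 members, 1 was higher (Sox2) and 3 lower (Nanog, Dppa5a, Lin28a), with sums of 2140 to 2303 and 1934 to 2019. Dab2, of the primitive endoderm list, was higher (0.67; adjusted p = 0.0344), with list sums of 44.3 to 51.1 and 53.0 to 53.4. Krt18, of the trophoblast list, was lower (−1.12; adjusted p = 0.000819), with sums of 50.3 to 51.6 and 33.5 to 35.8. Col1a1 (−1.01; adjusted p = 0.00635) and Pdgfrb (−1.01; adjusted p = 0.00758), of the fibroblast list, were lower, with sums of 38.5 to 49.2 and 21.1 to 36.2. None of the 5 mesoderm markers passed the filter (sums of 19.7 to 21.9 and 2.74 to 4.11). Zscan4d, a marker of the 2-cell-like state, rose by 3.27 ± 0.23 (adjusted p = 2.47e-11), and at 0 min the 2-cell-like sum was 16.7 in one 4OHT library and 116 in the other, against 19.1 to 24.4 in DMSO. The part of these cell states in the values of Nanog, Klf2 and Sox2 was not tested.

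The gene nearest to each member in its pattern over the 8 libraries was sought among 5831 genes with at least 100 deposited units in every 8 min library, by the Euclidean distance of mean-centred log2 relative values. The nearest to Nanog was the tubulin gene Tubb2b, at a distance of 0.32 beside a median of 3.15 for all candidates, and its 8 min change was −0.85. For Pou5f1 it was Pnpla7 (0.30), for Sox2 Sart3 (0.21), for Klf2 Agbl4 (0.44) and for Klf4 Tmem248 (0.34). Esrrb was nearest to Nup210l (0.16), Tfcp2l1 to Rbbp4 (0.20), Zfp42 to Ddx21 (0.18), Tbx3 to Akap1 (0.16) and Prdm14 to Tmem55b (0.36). These distances share libraries, scaling and depth, and Prdm14 rests on few reads.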

How the data were processed

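Labelled RNA was sequenced in 8 libraries. The authors deposited 1 table of signal values; the submitters' processing notes name bcl2fastq, STAR 2.7, Bowtie2 and mm10 without their roles. Each deposited signal value was a whole count of reads divided by 1 number per library (8.10 to 29.5): at least 99.99% of values came within 0.01 of a whole number after multiplying back. The counter, strand, handling of multi-mapping reads and meaning of the divisor are not given in the sources used here.

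Members were matched by symbol; gene spans and upstream windows came from RefSeq (GRCm38.p6). Relative values are the deposited ones divided by median-ratio factors over 24198 genes above 0 in all libraries. limma 3.58.1 in R 4.3.3 (trend, two-sided, Benjamini-Hochberg over 20657 genes with at least 10 deposited units in at least 2 of 8 libraries) was run on log2(value + 1), so folds of low genes are understated; it used the 4 libraries of a comparison, and all 8 for the interaction. edgeR 4.0.16 and DESeq2 1.42.0 on recovered reads were alternatives. The fits were tested on simulated data. Named genes were the members, Ythdc1, overlapping genes, up to 3 genes of smallest p at 8 min per list (others shown complete a count) and 1 nearest gene per member. Members and lists were chosen with earlier results of these data known. Spike-in scaling, edgeR with the deposited divisors and the alternatives for the gene lists were chosen after the data were seen.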

Additional observations from a re-analysis of the deposited data

How the results depend on the processing

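At 8 min on the relative scale, Nanog kept its direction and call under pseudocounts of 0.5 and 5, factors from the 4 libraries, TMM, quantile normalization, total reads, edgeR and DESeq2. It kept its direction with each library left out. The call was lost without a filter (limma adjusted p = 0.0564) and with all 8 libraries in 1 fit. Members called higher numbered 0 without a filter, without a trend and with all 8 libraries, and 4 on the deposited scale. Members called lower numbered 0 on the deposited scale, without a filter and with all 8 libraries. They numbered 1 at a minimum of 100 (where Klf2 was not tested) or without a trend. Counts with a library left out are not given, since 1 group then held 1 library. The deposited scale turned Pou5f1 (1.47), Nanog (0.45), Klf2 (0.92), Klf4 (1.25), Esrrb (1.32), Zfp42 (1.29) and Prdm14 (1.05) upward. Pou5f1, at −0.0056, also crossed 0 with factors from the 4 libraries (0.035), TMM (0.0033), total reads (0.024) and a library left out (−0.23 to 0.22). The cause was not tested.

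On the deposited scale at 8 min, 10 members were higher with the replicate block, that is with the library number as a pairing term. The share of all genes called with the block is not given here, and the main fit on that scale already called 59.6% higher. The 10 calls are therefore not read as particular to the members. Without a filter or with spike-in scaling 0 members were higher. Spike-in scaling turned Nanog (−0.89), Klf2 (−0.41), Klf4 (−0.083), Esrrb (−0.018), Zfp42 (−0.050) and Prdm14 (−0.20) downward. The labels do not say that same-numbered libraries are pairs. On the relative scale, deviations of same-numbered DMSO and 4OHT libraries correlated at 0.42 at 0 min and 0.094 at 8 min. On the deposited scale at 8 min, number 2 lay above number 1 in both treatments for every member. Esrrb, for example, had 918 and 1500 in DMSO and 2305 and 3736 with 4OHT. Under the block Nanog at 8 min on the relative scale was −1.02 (adjusted p = 4.53e-12), and the counts of members of the other comparisons did not change.

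At 0 min the deposited scale turned Pou5f1 (0.20), Sox2 (0.27), Nanog (0.29), Klf2 (0.015), Esrrb (0.21), Zfp42 (0.29) and Tbx3 (0.19) upward. With a library left out, Pou5f1 ranged from −0.44 to 0.27, Sox2 from −0.16 to 0.083, Nanog from −0.39 to 0.36, Klf4 from −0.047 to 0.48, Esrrb from −0.42 to 0.27 and Zfp42 from −0.023 to 0.0091.

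For 8 against 0 min in DMSO, members lower numbered 0 on the deposited scale and without a filter and 4 by edgeR. Members higher numbered 0 without a filter and 1 by edgeR. Calls of members and of all genes also changed with a library left out, where 1 group held 1 library. The deposited scale turned Sox2 (0.44), Nanog (0.56) and Zfp42 (0.48), edgeR turned Klf2 (−0.029) and Tbx3 (−0.20), and left-out libraries took Klf2 from −0.0089 to 0.45. With 4OHT, members higher numbered 6 on the deposited scale, where the share of all genes called is not given here, and 1 with all 8 libraries. Members lower numbered 0 on the deposited scale and 1 without a filter. Calls of members and of all genes also changed with a library left out. The deposited scale turned Pou5f1 (0.66), Sox2 (2.07), Nanog (0.72), Klf2 (2.13), Esrrb (0.63), Zfp42 (1.48) and Prdm14 (1.70), and left-out libraries took Klf2 from −0.090 to 0.045.

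For the difference of both effects, the deposited scale turned Nanog (0.16), Klf2 (0.90), Klf4 (0.75), Esrrb (1.11), Zfp42 (1.00) and Prdm14 (0.48), and left-out libraries took Pou5f1 from −0.26 to 0.44, Esrrb from −0.43 to 0.28 and Tfcp2l1 from −0.077 to 0.096. At 8 min the deposited scale gave 6, 10 and 3 higher and 0 lower for LIF signalling, partner factors and known targets. Over all genes it gave 59.6% higher and 0.15% lower. All 8 libraries in 1 fit gave 0 for each list. The counts of lower partners and lower targets changed with a library left out. Depth limits Prdm14, with 46 to 220 reads per library, more than any other member.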
